A study of Homo sapiens with 9 samples.

Results

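MC1R, the melanocortin receptor of pigment cells, and 4 genes that act on its ligand side were followed across the 9 RNA-seq libraries of the series. The 5 genes are POMC, ASIP, MC1R, ATRN and MGRN1. They were picked by symbol from the 25382 genes of the deposited count table, with earlier results of these data known. MC1R was higher with both DsiRNAs against TBX3, and by more with 13.8 than with 13.6. MGRN1 was lower with both. ATRN and ASIP did not pass the test in any comparison, and POMC was close to undetected.

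The libraries come from 501mel, an established human melanoma cell line, grown in DMEM with fetal bovine serum. The first group received DsiRNA 13.6 against TBX3, the second DsiRNA 13.8 against TBX3, and the third the control DsiRNA NC1. A DsiRNA is a short synthetic double-stranded RNA that Dicer cuts into a silencing guide. All 9 cultures were transfected with Lipofectamine and lysed 24 h later, no untransfected group is used here, and total RNA was sequenced from 3 libraries per group. The labels call these libraries biological replicates but do not say whether they came from separate transfections, so p-values measure the spread between these libraries, all of 1 cell line. The design contrasts cells with lowered TBX3, a T-box transcription factor, with control cells.

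MC1R is a G protein-coupled receptor that raises cAMP in melanocytes and drives the making of dark eumelanin. Its agonist alpha-MSH is cut from the precursor protein POMC, and the agouti signalling protein ASIP competes with alpha-MSH and shifts pigment to red-yellow pheomelanin. In mice, agouti needs attractin (ATRN), a membrane protein that binds it, and mahogunin (MGRN1), a RING-type ubiquitin ligase, and loss of either darkens the coat.

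The promoter of MC1R is shown because TBX3 is a T-box factor and MC1R was the member that rose. Of the promoter windows of the 5 members in the RefSeq table of build GRCh38.p14 (1 each for 4 genes, 2 for ASIP), only that of MC1R held the T-box element GGTGTGA or the E-box CATGTG that MITF is known to bind. The windows run from 250 bases before the start to 50 after it, and both strands were searched. The 250 bases upstream of the MC1R start, chr16:89918612-89918861 on the plus strand, read as follows, with both motifs in capitals.
MC1R: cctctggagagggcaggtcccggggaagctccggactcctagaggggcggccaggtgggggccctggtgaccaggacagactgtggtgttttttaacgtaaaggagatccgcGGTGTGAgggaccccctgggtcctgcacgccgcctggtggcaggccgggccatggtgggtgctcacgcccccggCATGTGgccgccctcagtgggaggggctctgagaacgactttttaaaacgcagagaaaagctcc
GGTGTGA begins 138 bases before the start and CATGTG begins 64 bases before it, and they do not overlap. Of all 35116 promoter windows in the table, 3.45% hold GGTGTGA and 11.1% hold CATGTG. The E-box CACGTG was in no member's window, against 7.26% of all windows. The windows of ATRN and MGRN1 each held the cAMP response element core TGACG on the reverse strand, as 24.6% of all windows do. A match is a description of the letters in the window and does not show binding.

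The libraries held 38105026 to 52272147 counted reads, and levels are given in CPM, reads per 1000000 of the TMM-scaled library total. TBX3 itself was at 46.39, 41.02 and 39.38 CPM in the 13.6 libraries, at 36.11, 33.73 and 36.23 CPM in the 13.8 libraries, and at 88.61, 83.78 and 83.99 CPM in the controls. All 6 DsiRNA libraries lay below the 3 controls, as the labels would have it, with log2 fold changes of −1.02 ± 0.07 (SE) for 13.6 and −1.27 ± 0.07 for 13.8 (edgeR, adjusted p = 1.27e-07 and 1.03e-08). The difference between the DsiRNAs, 0.26 ± 0.07, also passed the test (adjusted p = 0.00699). The melanocyte lineage markers MLANA, PMEL, TYR, SOX10, MITF and S100B were all present, with a summed level of 10800 to 11900 CPM with 13.6, 8900 to 9200 CPM with 13.8 and 9380 to 11100 CPM in controls. PMEL makes up most of that sum, and MITF and S100B moved in opposite directions with 13.8. MITF averaged 768 CPM with 13.6, 403 CPM with 13.8 and 792 CPM in controls, TYR 808, 678 and 380 CPM in the same order, and S100B 36.9, 89.6 and 29.7 CPM. Of the 4 keratinocyte markers, KRT5, KRT14 and KRT1 had 0, 1 and 4 reads over all 9 libraries, while KRT10 averaged 43.7 CPM with 13.6, 41.9 CPM with 13.8 and 43.1 CPM in controls. All 4 leukocyte and all 4 endothelial markers averaged under 1 CPM. Of 3 corticotroph markers, TBX19 averaged 4.13 CPM with 13.6, 3.71 CPM with 13.8 and 3.55 CPM in controls, and PITX1 and NEUROD1 were under 1 CPM. The 5 fibroblast markers COL1A1, COL1A2, DCN, LUM and PDGFRA summed to 4.48 to 5.28 CPM with 13.6, 15.4 to 18.6 CPM with 13.8 and 4.77 to 5.98 CPM in controls, and 3 of them averaged under 1 CPM. Their part in the results on 13.8 below was not tested.

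Of the 4 members that passed the filter on low reads, 1 was called higher (MC1R), 1 was called lower (MGRN1) and 2 did not pass the test with 13.6, and the count was the same with 13.8 and with both DsiRNAs pooled. A call is a Benjamini-Hochberg adjusted p under 0.05 in edgeR's quasi-likelihood test over 14731 genes. Calls were common in these data. Of all genes tested, 49.9% were called with 13.6 (24.9% higher, 25.0% lower), 55.5% with 13.8 (27.5% higher, 27.9% lower) and 50.2% with both pooled (23.3% higher, 26.9% lower). Between 13.6 and 13.8, 61.1% were called (30.9% higher and 30.2% lower with 13.6), and 1 of the 4 members, MC1R, was among them. A share of 2 called members in 4 is close to the background of each comparison with control. POMC is the member that did not pass the filter, and all comparisons with control use the same 3 control libraries.

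**Figure D1:**
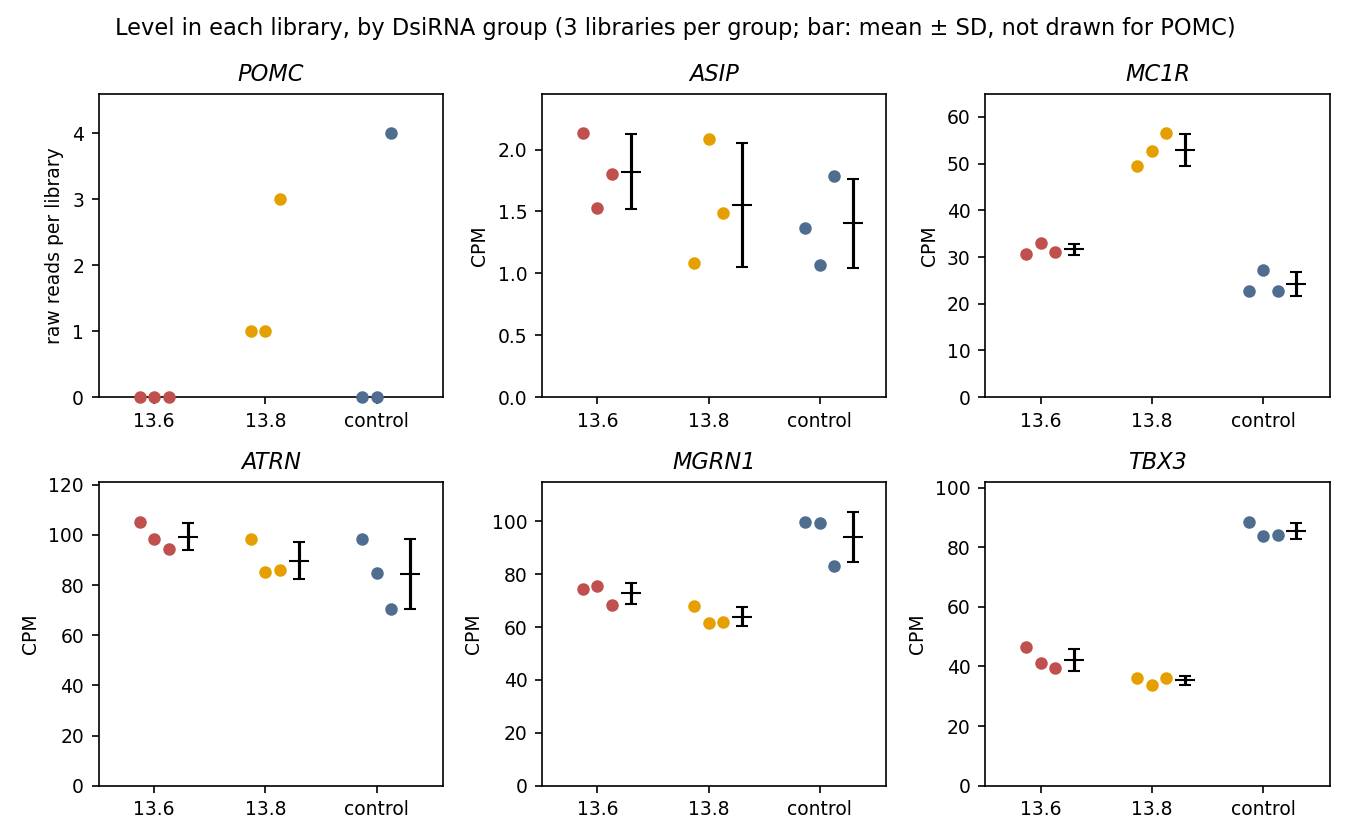
Level of each gene in every library, as CPM (TMM-scaled) or, for POMC, as raw reads, with DsiRNA 13.6, DsiRNA 13.8 and control from left to right. Points are libraries and black bars are the mean ± SD of 3. MC1R was highest with 13.8 (49.54 to 56.54 CPM) and MGRN1 highest in controls (82.99 to 99.86 CPM).

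Among the ligands, POMC transcripts were at the edge of detection. The 3 libraries with 13.6 had 0 reads each, the libraries with 13.8 had 1, 1 and 3 reads, and the control libraries had 0, 0 and 4 reads. At the depth of the 13.6 libraries a count of 0 (a limit of 3 reads) allows a level of up to 0.0721, 0.0631 and 0.0643 CPM. Summed over the group and scaled by library totals, 5 reads with 13.8 and 4 reads in controls give a ratio of 1.05, with an exact 95% interval of 0.227 to 5.31 that covers counting error only. With 13.6, 0 reads against 4 in controls leave a ratio of up to 1.39 within that interval. An exact two-sided permutation test over libraries gave p = 1 for each DsiRNA against control. With 13.6 that outcome was fixed, because all reads lay in a single control library and every arrangement gives the same difference. With 13.8 the test could not go below 0.1. Between the DsiRNAs, 0 reads with 13.6 against 5 with 13.8 leave a ratio of up to 1.19, and the same exact test gave p = 0.1, the smallest it allows. A difference in POMC from control was not detectable at this depth.

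ASIP, the antagonist, was also low, and its groups overlapped. It had 88, 71 and 82 reads with 13.6 (2.13, 1.53 and 1.80 CPM), 52, 110 and 73 reads with 13.8 (1.09, 2.09 and 1.48 CPM), and 63, 41 and 73 reads in controls (1.36, 1.07 and 1.78 CPM). The log2 fold change was 0.37 ± 0.27 for 13.6 (95% interval −0.21 to 0.95; edgeR, adjusted p = 0.273) and 0.15 ± 0.27 for 13.8 (−0.43 to 0.73; adjusted p = 0.669). Both intervals hold 0. Between 13.6 and 13.8 the value was 0.22 ± 0.26 (adjusted p = 0.478). With 13.8 the direction was not fixed: the log2 change became −0.01 without control replicate 2 and −0.13 without 13.8 replicate 2, with adjusted p = 0.979 and 0.731 in edgeR.

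The enzymes that release alpha-MSH from POMC were mostly near 0. Of the 8 genes listed for POMC processing and alpha-MSH breakdown, 3 were under the filter. These are the prohormone convertases PCSK1 and PCSK2 with 16 and 15 reads over all 9 libraries, and the carboxypeptidase CPE with 12. Of the 5 tested, 3 were higher, 1 was lower and 1 did not pass with 13.6, at a median log2 change of 0.40. With 13.8, 4 were higher and 1 did not pass, at a median of 0.45. Of all tested genes, 24.9% were called higher and 25.0% lower with 13.6, and 27.5% and 27.9% with 13.8, with medians of −0.01 and 0.01. PAM, which amidates peptide ends, was at 61.39, 48.17 and 60.64 CPM with 13.6, at 94.55, 84.61 and 83.08 CPM with 13.8, and at 47.5, 48.58 and 35.62 CPM in controls. Its log2 fold change was 0.37 ± 0.12 with 13.6 and 0.99 ± 0.12 with 13.8 (edgeR, adjusted p = 0.0221 and 1.71e-05), and 1 library of 13.6 lay within the range of the controls. PRCP, a carboxypeptidase that inactivates alpha-MSH, was higher by 0.50 ± 0.08 with 13.6 and by 0.45 ± 0.08 with 13.8. PCSK1N, the proSAAS inhibitor of PCSK1, was called in opposite directions: 5.40, 5.56 and 4.66 CPM with 13.6, 12.93, 12.6 and 13.09 CPM with 13.8, and 8.01, 8.5 and 6.97 CPM in controls. Its log2 changes were −0.59 ± 0.11 and 0.72 ± 0.10, and the log2 change of 13.6 against 13.8 was −1.31 ± 0.11 (edgeR, adjusted p = 2.77e-07). CPD, a broadly expressed carboxypeptidase, was higher with both (0.40 ± 0.08 and 0.25 ± 0.08), and SCG5, the PCSK2 chaperone 7B2, did not pass with either (0.49 ± 0.32 and 0.16 ± 0.32).

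MC1R, the receptor, was higher with both DsiRNAs and higher with 13.8 than with 13.6. It had 1268, 1533 and 1414 reads with 13.6, which is 30.73, 33.04 and 31.09 CPM. With 13.8 it had 2371, 2774 and 2782 reads, or 49.54, 52.63 and 56.54 CPM. The control libraries had 1049, 1049 and 933 reads, or 22.7, 27.27 and 22.81 CPM. The 3 groups did not overlap: every 13.8 library lay above every 13.6 library, and every 13.6 library above every control. The share of all tested genes whose groups separate like this was not counted, for MC1R or for the genes below.

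The group means were 31.62 ± 1.24 CPM with 13.6, 52.9 ± 3.51 CPM with 13.8 and 24.26 ± 2.61 CPM in controls (SD, n = 3 each). The log2 fold change with 13.6 was 0.38 ± 0.08 (SE; 1.305-fold, edgeR, adjusted p = 0.00196), and 19.7% of all tested genes had a more positive value. With 13.8 it was 1.13 ± 0.08 (2.18-fold, edgeR, adjusted p = 1.28e-07), and 6.67% of tested genes had a more positive value. Pooled over both DsiRNAs it was 0.75 ± 0.07 (edgeR, adjusted p = 2.46e-06). Between the DsiRNAs, 13.6 against 13.8, it was −0.74 ± 0.08 (0.598-fold, edgeR, adjusted p = 4.78e-06). In these bulk libraries, fewer cells of a type and less RNA per cell cannot be told apart.

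**Figure D2:**
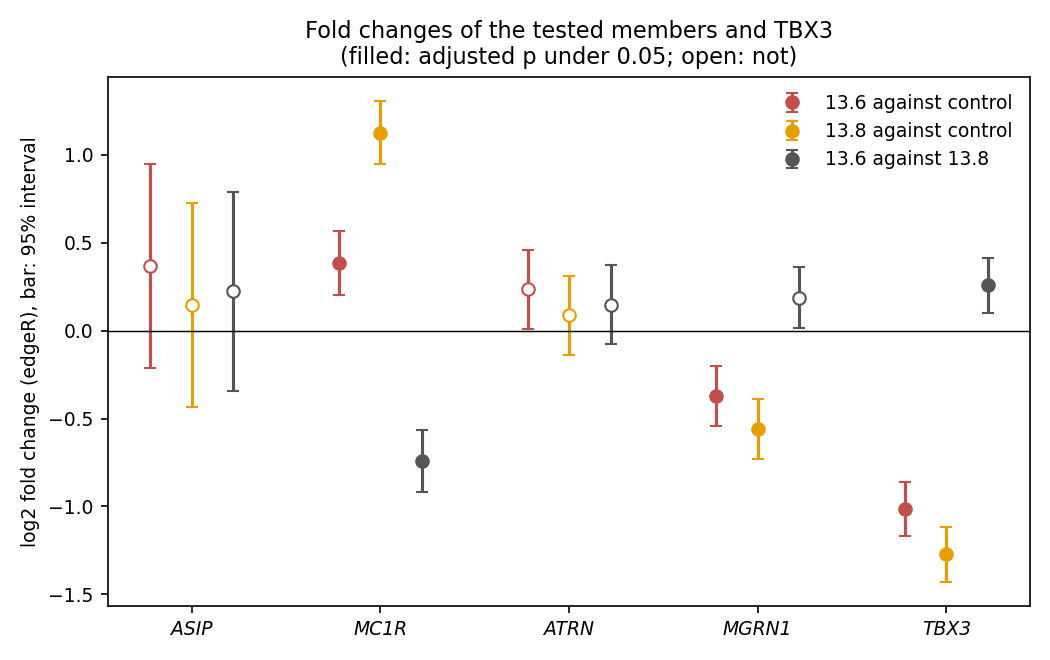
Log2 fold changes from edgeR, with 95% intervals, for the 4 tested members and TBX3 with DsiRNA 13.6 against control, with DsiRNA 13.8 against control, and with 13.6 against 13.8. Filled points passed an adjusted p of 0.05 and open points did not. MC1R lay above 0 with both DsiRNAs (0.38 and 1.13) and MGRN1 below 0 with both (−0.37 and −0.56).

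The count of MC1R is uncertain in 1 respect. In GENCODE 29 (build GRCh38) a readthrough gene that joins MC1R to its neighbour TUBB3 on the same strand covers 24.7% of the exonic bases of MC1R and 48.1% of those of TUBB3, the neuronal beta-III tubulin. A noncoding gene on the same strand covers 7.42% of the exonic bases of MC1R, and an antisense gene covers 18.6%. None of the 3 has an entry of its own under that name in the count table. The library kit keeps strand, but the sources used here give neither the strand setting of the counting nor its annotation. ASIP, POMC, ATRN and MGRN1 share no exonic bases with another gene there.

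TUBB3 reads were set beside those of MC1R for that reason. TUBB3 was at 47.43, 52.16 and 50.55 CPM with 13.6, at 77.73, 90.93 and 85.64 CPM with 13.8, and at 55.74, 65.92 and 63.66 CPM in controls. It was thus lower with 13.6 (log2 change −0.30 ± 0.08, edgeR, adjusted p = 0.00635), where MC1R was higher, and higher with 13.8 (0.46 ± 0.08, adjusted p = 0.000267). MC1R reads per TUBB3 read were 0.648, 0.633 and 0.615 with 13.6, 0.637, 0.579 and 0.66 with 13.8, and 0.407, 0.414 and 0.358 in controls. The ratio was above every control in all 6 DsiRNA libraries, and it overlapped between 13.6 and 13.8. An exact two-sided permutation test over the log2 ratios gave p = 0.1 for each DsiRNA against control, the smallest that 3 against 3 libraries allow, and p = 0.9 for 13.6 against 13.8. The difference of MC1R between the DsiRNAs, −0.74 on the log2 scale, thus ran beside a like difference of TUBB3, −0.76 ± 0.08. The part of shared reads in it was not tested.

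**Figure D3:**
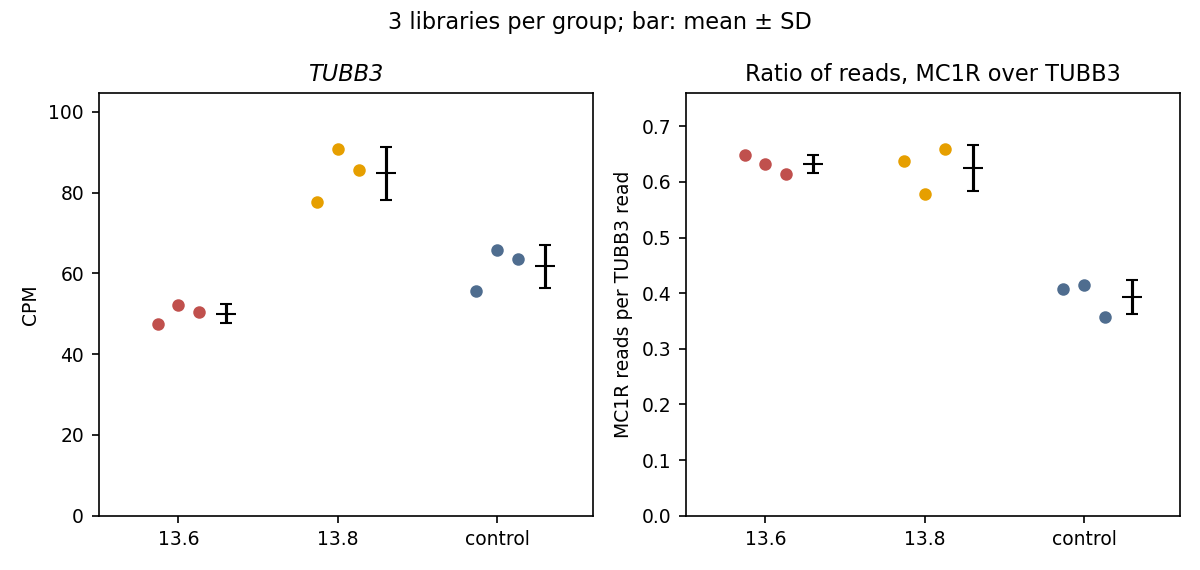
TUBB3 level in CPM (left) and MC1R reads per TUBB3 read (right) in each library, with DsiRNA 13.6, DsiRNA 13.8 and control from left to right and black bars for the mean ± SD of 3. The ratio averaged 0.632 with 13.6, 0.625 with 13.8 and 0.393 in controls.

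The genes beside MC1R on chromosome 16 moved in both directions. Of 8 neighbours, 3 were higher, 3 lower and 2 not past the test with each DsiRNA, with median log2 changes of 0.00 for 13.6 and 0.20 for 13.8. Of all tested genes, 49.9% were called in either direction with 13.6 and 55.5% with 13.8. With 13.6 against 13.8, 4 of the 8 neighbours were higher, 3 lower and 1 not past the test, where 61.1% of all tested genes were called. The 3 lower were TUBB3, TCF25 (−0.55 ± 0.05) and SPIRE2 (−1.01 ± 0.09), the last 2 with edgeR adjusted p = 1.52e-06 and 9.11e-07. FANCA, a Fanconi anaemia repair gene, was lower with both (−0.72 ± 0.09 and −1.50 ± 0.09; edgeR, adjusted p = 1.75e-05 and 1.72e-08). CENPBD1 was higher with both (0.34 ± 0.09 and 0.24 ± 0.09), and so was MC1R itself. TCF25, next to MC1R on the side away from TUBB3, was higher with 13.8 by 0.56 ± 0.05 (edgeR, adjusted p = 1.56e-06) and stood at 0.01 ± 0.05 with 13.6. GAS8, a part of the motile cilium, was higher with 13.6 (0.30 ± 0.07) and lower with 13.8 (−0.27 ± 0.07). DBNDD1 was higher with 13.6 (0.92 ± 0.08) and stood at 0.17 ± 0.08 with 13.8, SPIRE2, an actin nucleator, was lower with 13.6 (−0.79 ± 0.10) and stood at 0.23 ± 0.09 with 13.8, and DEF8 was lower with 13.8 (−0.41 ± 0.06) and stood at −0.01 ± 0.06 with 13.6.

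The other melanocortin receptors and their helpers were mostly undetected. MC2R, MC3R and MC4R had 3, 2 and 13 reads over all 9 libraries, the receptor accessory proteins MRAP and MRAP2 had 13 and 7, and AGRP, the agouti-related antagonist of the brain receptors, had 8. These 6 of the 8 listed genes were under the filter. MC5R, the receptor known from exocrine glands, had 1, 1 and 2 reads with 13.6, 17, 48 and 37 reads with 13.8, and 4, 10 and 6 reads in controls. MC5R passed the filter through its reads with 13.8. With only the 13.6 and control libraries fitted it was under the filter, so its calls cannot be read apart from that group. Its groups did not overlap, and its log2 change was −2.32 ± 0.81 with 13.6 and 2.05 ± 0.49 with 13.8 (edgeR, adjusted p = 0.0301 and 0.00298). The call with 13.6 rests on few reads and was lost without control replicate 2 (−1.85, adjusted p = 0.114), without 13.6 replicate 1 (−2.21, 0.0745) and without 13.6 replicate 2 (−2.13, 0.0869). Between 13.6 and 13.8 the log2 change of MC5R was −4.37 ± 0.65 (edgeR, adjusted p = 6.19e-05).

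ATRN, the agouti co-receptor, did not pass the test in any comparison. It was at 105.3, 98.35 and 94.4 CPM with 13.6 (4347, 4563 and 4293 reads), at 98.31, 85.13 and 85.82 CPM with 13.8, and at 98.35, 84.61 and 70.33 CPM in controls. The controls spread most, with a coefficient of variation of 16.6%, against 5.58% with 13.6 and 8.26% with 13.8, and the groups overlapped. The log2 fold change was 0.23 ± 0.10 with 13.6 and 0.09 ± 0.10 with 13.8 (edgeR, adjusted p = 0.0777 and 0.497). The 95% intervals, not corrected for the number of genes, were 0.01 to 0.46 with 13.6 and −0.14 to 0.31 with 13.8. Only that of 13.8 holds 0. Between 13.6 and 13.8 the log2 change was 0.15 ± 0.10 (adjusted p = 0.236). The outcome with 13.6 changed with the controls used: without control replicate 1 the value was 0.36 and passed (edgeR, adjusted p = 0.00637), and without control replicate 3 it was 0.12 (adjusted p = 0.243). With all 9 libraries and the replicate number as a block it passed at 0.24 (edgeR, adjusted p = 0.00586). The labels do not say whether those numbers pair the libraries. Pooled over both DsiRNAs the value was 0.16 ± 0.09 (adjusted p = 0.157), against 0.28 without control replicate 1 (adjusted p = 0.0137) and 0.04 without control replicate 3 (adjusted p = 0.641). With 13.8, leaving out control replicate 3 gave −0.03 (adjusted p = 0.769).

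MGRN1, the ubiquitin ligase, was lower with both DsiRNAs. It had 3070, 3503 and 3100 reads with 13.6, or 74.4, 75.5 and 68.16 CPM. With 13.8 it had 3255, 3251 and 3040 reads, or 68.01, 61.68 and 61.78 CPM. The controls had 4615, 3820 and 3395 reads, or 99.86, 99.29 and 82.99 CPM. All 6 DsiRNA libraries lay below the 3 controls, and the 3 libraries of 13.6 lay just above those of 13.8.

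The means were 72.69 ± 3.96 CPM with 13.6, 63.82 ± 3.63 CPM with 13.8 and 94.05 ± 9.58 CPM in controls (SD, n = 3 each). The log2 fold change was −0.37 ± 0.08 with 13.6 (0.773-fold, edgeR, adjusted p = 0.00163) and −0.56 ± 0.08 with 13.8 (0.679-fold, edgeR, adjusted p = 5.18e-05). With 13.6, 22.6% of tested genes had a more negative value, and with 13.8 the share was 13.6%. Between the DsiRNAs the value was 0.19 ± 0.08 (95% interval 0.02 to 0.36; edgeR, adjusted p = 0.0555) and did not pass, although 7 of 18 alternative settings brought it under 0.05.

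The partners and relatives of MGRN1 and attractin split. Of 5 genes, 1 was higher, 2 were lower and 2 not past the test with 13.6 (median log2 change −0.10), and 1 was higher, 3 were lower and 1 not past with 13.8 (median −0.27). The background was 49.9% of tested genes called with 13.6 and 55.5% with 13.8. Without 13.8 replicate 1, 2 of the 5 were called with 13.8 in place of 4. C16orf52, now named MOSMO and a membrane partner of MGRN1, was lower with both (−0.27 ± 0.09 and −0.27 ± 0.09). RNF157, the ligase most like MGRN1, was called higher with both (0.35 ± 0.09 and 0.23 ± 0.09). With 13.8 the call was near the threshold (edgeR, adjusted p = 0.0459), and 13.8 replicate 2, at 15.29 CPM, lay below control replicate 2, at 15.41 CPM. ATRNL1, the relative of attractin, was at 17.23, 16.55 and 16.82 CPM with 13.6, at 20.56, 19.9 and 22.8 CPM with 13.8, and at 25.45, 25.84 and 25.2 CPM in controls. It was lower with both (−0.60 ± 0.07 and −0.27 ± 0.07; edgeR, adjusted p = 1.97e-05 and 0.00586), and its 3 groups did not overlap. TSG101, an MGRN1 substrate of the endosomal sorting machinery, was lower with 13.8 (−0.45 ± 0.07) and stood at −0.05 ± 0.07 with 13.6. SMO, a Hedgehog pathway protein that MGRN1 helps to clear from the membrane, did not pass with either (−0.10 ± 0.07 and 0.13 ± 0.07).

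Per kilobase of transcript, the order of the members depended on which GENCODE 29 transcript gave the length. On the longest principal transcripts, MGRN1 was at 18.3 ± 0.998 CPM per kilobase with 13.6, 16.1 ± 0.914 with 13.8 and 23.7 ± 2.41 in controls. MC1R was at 10.2 ± 0.401 with 13.6, 17.1 ± 1.13 with 13.8 and 7.83 ± 0.841 in controls on that scale. ATRN was at 11.5 ± 0.639, 10.4 ± 0.859 and 9.78 ± 1.62, in that order of groups. In controls MGRN1 led the members, and ATRN (8.15 to 11.4) and MC1R (7.32 to 8.8) overlapped. With 13.8 MC1R (16 to 18.2) overlapped MGRN1 (15.5 to 17.1), and both lay above ATRN (9.86 to 11.4). On the longest coding transcripts, the level of MC1R with 13.8 was 14.5 ± 0.965 and that of MGRN1 9.93 ± 0.564, so that MC1R led in that group. ASIP came next at 2.99 ± 0.495 with 13.6, 2.55 ± 0.825 with 13.8 and 2.3 ± 0.591 in controls, and POMC was last on both lengths, at 0.0236 ± 0.0166 with 13.8 and 0.0229 ± 0.0396 in controls.

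Downstream of the receptor lie the Gs protein, the adenylyl cyclases that make cAMP, and the kinases and arrestins that silence active receptors. Of 11 such genes, 5 were higher, 4 lower and 2 not past the test with 13.6 (median log2 change 0.02), and 1 was higher, 5 lower and 5 not past with 13.8 (median −0.23). Over all genes the called shares were 24.9% higher and 25.0% lower with 13.6, and 27.5% and 27.9% with 13.8. ARRB1, beta-arrestin 1, was at 46.65, 46.25 and 47.6 CPM with 13.6, at 47.91, 47.68 and 47.76 CPM with 13.8, and at 26.01, 32.91 and 27.01 CPM in controls. Its log2 change was 0.71 ± 0.08 with 13.6 and 0.74 ± 0.08 with 13.8 (edgeR, adjusted p = 1.05e-05 and 5.18e-06). ARRB2, beta-arrestin 2, was lower with both, at 20.14, 18.79 and 18.6 CPM with 13.6, 25.03, 24.59 and 26.26 CPM with 13.8, and 29.56, 31.24 and 31.12 CPM in controls (−0.68 ± 0.07 and −0.28 ± 0.07). Among the receptor kinases, ADRBK1, also named GRK2, was lower with 13.8 (−0.63 ± 0.06; edgeR, adjusted p = 2.11e-06) and stood at 0.02 ± 0.06 with 13.6, and the 13.6 against 13.8 difference of 0.65 ± 0.06 passed (adjusted p = 1.43e-06). GRK6 was lower with both (−0.20 ± 0.07 and −0.70 ± 0.07). LYPLA2, the thioesterase that removes palmitate from MC1R, was lower with 13.6 (−0.40 ± 0.10) and stood at 0.04 ± 0.09 with 13.8. ADCY3, a cyclase, was higher with 13.6 (0.24 ± 0.09) and lower with 13.8 (−0.60 ± 0.09), with edgeR adjusted p = 0.0482 and 0.000122.

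Genes of the cAMP response and of pigment making, which lie downstream of MC1R, went in both directions. Of 15, 3 were higher, 7 lower and 5 not past the test with 13.6 (median log2 change −0.04), and 4 were higher, 10 lower and 1 not past with 13.8 (median −0.42). NR4A3, an orphan nuclear receptor and immediate-early gene, was at 155.1, 148.5 and 143.7 CPM with 13.6, at 41.22, 36.2 and 35.52 CPM with 13.8, and at 203.2, 231.9 and 193.8 CPM in controls. Its log2 change was −0.49 ± 0.08 with 13.6 and −2.48 ± 0.08 with 13.8 (edgeR, adjusted p = 0.000157 and 2.54e-10). NR4A1, its relative, was lower with 13.8 (−1.41 ± 0.07) and stood at 0.12 ± 0.07 with 13.6. PPARGC1A, the PGC-1 alpha coactivator, was lower with both (−0.72 ± 0.08 and −1.03 ± 0.08), and so was DUSP1, a MAP kinase phosphatase (−0.77 ± 0.09 and −0.42 ± 0.09). TYR, the first enzyme of melanin synthesis, was higher with both (1.09 ± 0.07 and 0.84 ± 0.07), and TYRP1, a melanosomal enzyme, was lower with 13.6 (−0.42 ± 0.06) and higher with 13.8 (1.12 ± 0.06). MITF, the melanocyte transcription factor whose E-box is printed above, is named after its values were seen. It was lower with 13.8 (−0.97 ± 0.11; edgeR, adjusted p = 7.09e-06) and stood at −0.04 ± 0.11 with 13.6. Beside these counts stand the 24.9% and 25.0% of all tested genes called higher and lower with 13.6, and the 27.5% and 27.9% with 13.8. The list was not tested as a set.

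**Figure D4:**
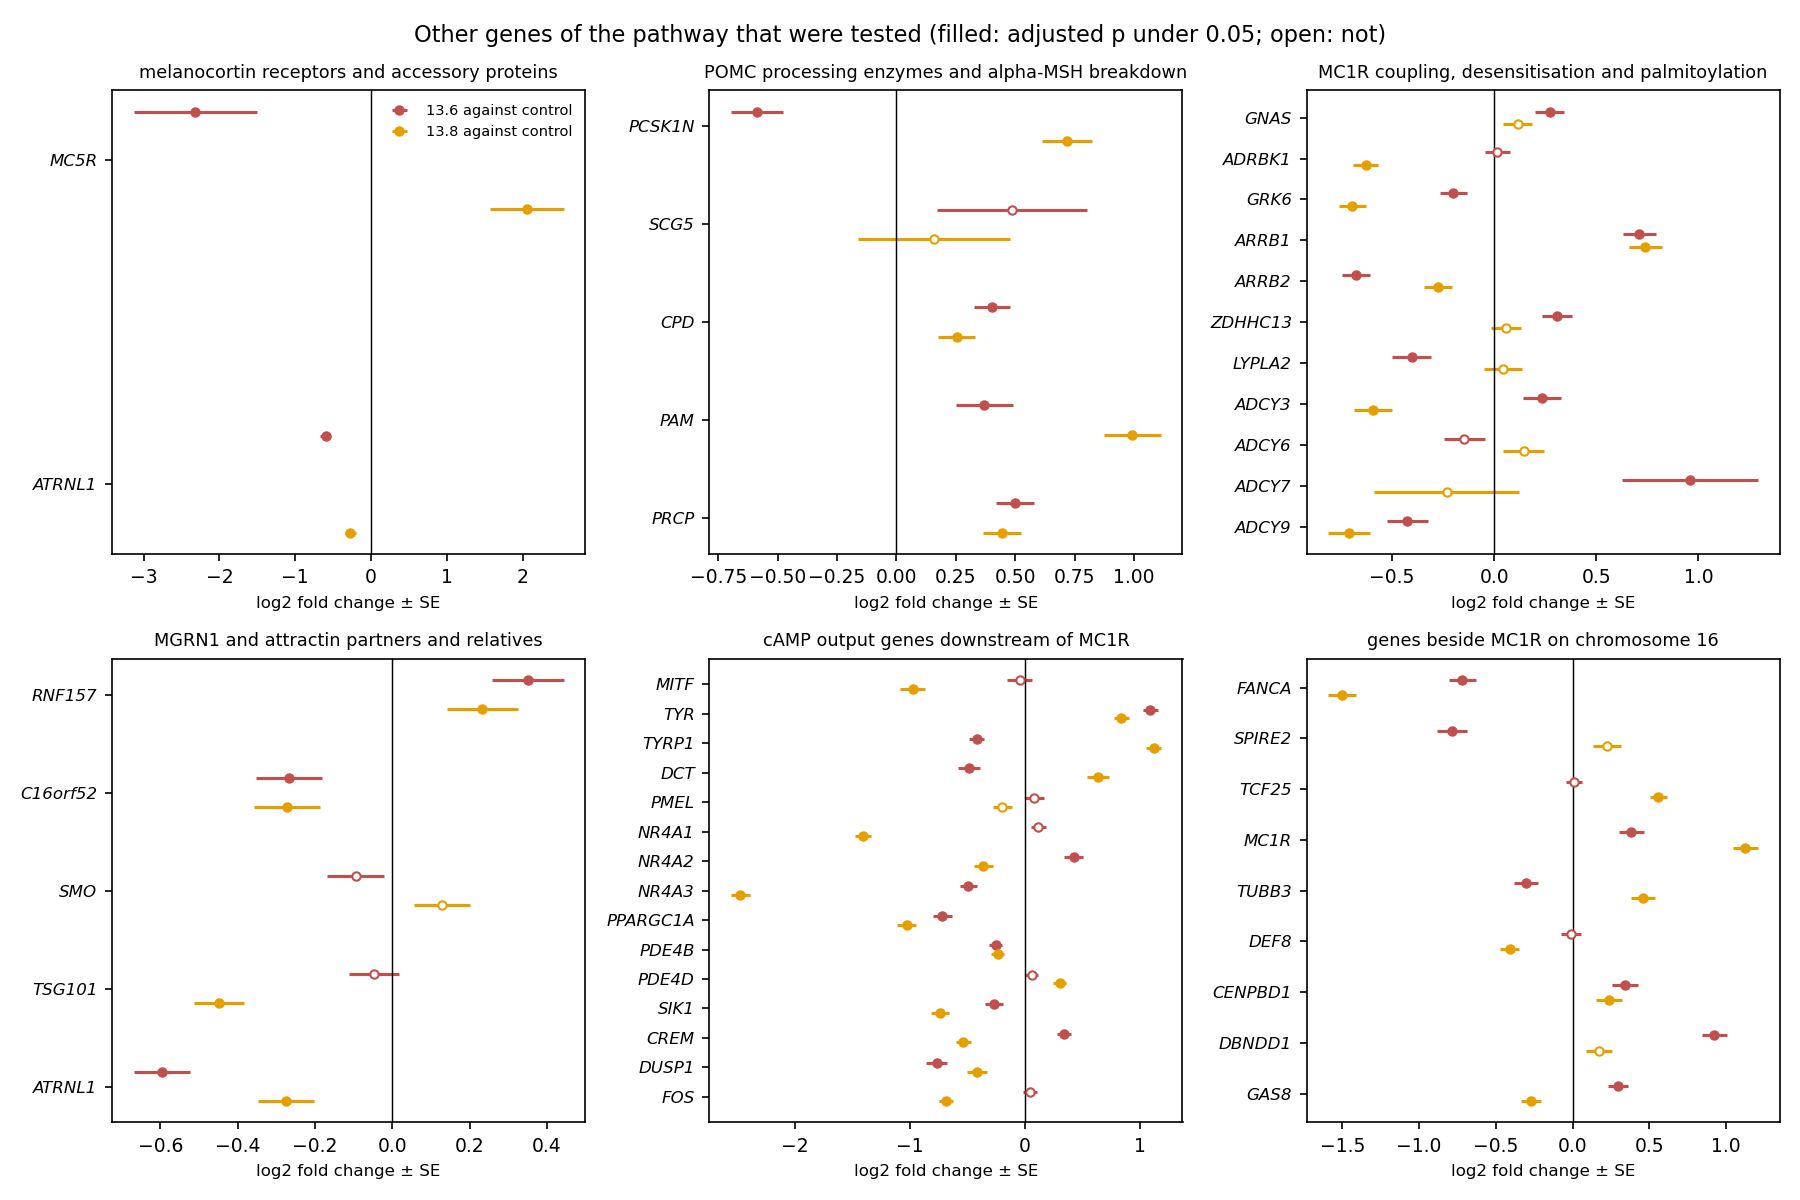
Log2 fold changes ± SE (edgeR) of the tested genes of 6 lists around MC1R, with DsiRNA 13.6 and DsiRNA 13.8 each against control. Filled points passed an adjusted p of 0.05 and open points did not; MC1R is drawn among its chromosome 16 neighbours, where 3 of 8 were higher and 3 lower with each DsiRNA.

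Genes whose log2 CPM followed a member most closely over the 9 libraries were searched over 10579 genes that averaged 5 CPM or more. The 9 points behind each correlation are 3 groups of 3 libraries, so group differences enter it. For MC1R these were the transcription factor FOXO4 (Pearson r = 0.9934), DLAT, a subunit of pyruvate dehydrogenase (0.9919), and the interferon-induced IFIT1 (0.9908). FOXO4 was at 28.5, 28.88 and 28.56 CPM with 13.6, at 39.64, 39.63 and 43.14 CPM with 13.8, and at 23.72, 27.89 and 24.05 CPM in controls. IFIT1 was at 7.78, 9.14 and 9.72 CPM with 13.6, at 37.38, 48 and 42.09 CPM with 13.8, and at 2.9, 4.24 and 3.42 CPM in controls. For MGRN1 they were the RNA helicase UPF1 (0.989), the chromatin protein L3MBTL2 (0.9861) and the WNT-pathway factor TCF7 (0.986). For ATRN they were ADNP (0.9642), VANGL2 (0.9628) and GPR107 (0.9563), none with a log2 change beyond 0.18 in either comparison with control.

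Short words in the 3′ UTR were looked up because an earlier search of these same data had tied GCTCTGT to lower values with 13.6 and AACTGTC to lower values with 13.8. They are shown here for the members that hold them. No independent support can be drawn from them. The longest GENCODE 29 coding 3′ UTR of MGRN1, of 4678 bases, holds GCTCTGT at 2 places and AACTGTC at 1, and that of ATRN, of 4278 bases, holds GCTCTGT at 1. The word is in capitals in these plus-strand GRCh38 sites.
MGRN1, chr16:4687255-4687281: acagaaggcgGCTCTGTccaggcagtg
MGRN1, chr16:4688289-4688315: gggcattgggGCTCTGTgggaggctcc
MGRN1, chr16:4689055-4689081: gagcacagtgAACTGTCccttctgagt
ATRN, chr20:3648375-3648401: catttatggtGCTCTGTattctggcat
The principal MGRN1 transcript, with a 3′ UTR of 2069 bases, holds AACTGTC and not GCTCTGT. MC1R, ASIP and POMC hold neither word in any annotated coding transcript. Of 12505 tested genes with a 3′ UTR, 20.7% hold GCTCTGT, and 35.4% of these were called lower with 13.6, against 22.8% of the rest. AACTGTC is in 11% of the genes, of which 45.1% were called lower with 13.8, against 27.7% of the rest. MGRN1, which holds both, was lower with both DsiRNAs, and ATRN, which holds GCTCTGT, stood at 0.23 ± 0.10 on the log2 scale with 13.6. The part of these words in the values was not tested. The word GATTAAC was also searched, and no member holds it. Of the genes with GATTAAC, 13.2% were called lower with 13.6 and 19.6% with 13.8, against 26.2% and 30.2% of the rest.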

How the data were processed

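The authors deposited raw counts by gene symbol. The build hg19 and the tools STAR, HTSeq, cutadapt, FastQC and DESeq2 are named in the submitters' processing notes, and the sources used here give no versions, annotation or strand setting. The authors' deposited log2 table gave back these counts within 0.00203 of a read for 25354 genes and was not tested. Of 25398 entries, 16 repeats were dropped, and 28 named as dates (0.2% of reads) stayed in the totals.

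Counts were tested in R 4.3.3 with edgeR 4.0.16 (TMM, filterByExpr with a minimum of 10 reads, robust quasi-likelihood fit on all 9 libraries, 6 residual degrees of freedom, two-sided, Benjamini-Hochberg over 14731 genes), after a test on simulated data. SEs and 95% intervals come from that fit. In the simulated data, 85% of 100 genes changed by 1 on the log2 scale were recovered, and 36.1% of 97 changed by 0.4. Far fewer genes were changed there than were called in the data, so these shares need not hold for the members. CPM are TMM-scaled. Alternatives used DESeq2 1.42.0 and limma 3.58.1. Sequences are RefSeq promoters (GRCh38.p14) and GENCODE 29 transcripts, for names, lengths and letters only. Intervals and limits on reads cover counting error only, since they leave out the spread between libraries. Reads carry no molecular identifiers.

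The members and lists were chosen with earlier results of these data known. All members and TBX3 were named, in lists of up to 8 genes any member, in longer lists the 3 with the smallest adjusted p per comparison, and the 3 genes most like each member with at least 5 CPM. In the list of MGRN1 and attractin partners, 1 gene is not reported here and was left out of its counts.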

Additional observations from a re-analysis of the deposited data

Results flagged for a closer look

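MC1R was singled out because its effect differed between the DsiRNAs in a direct test of the difference. Such a call was common: 61.1% of all tested genes were called there, and 15.2% had a more negative value than MC1R. The log2 fold change of 13.6 against 13.8 was −0.74 ± 0.08 (edgeR, adjusted p = 4.78e-06), with all 3 libraries of 13.6 (30.73 to 33.04 CPM) below all 3 of 13.8 (49.54 to 56.54 CPM). Groups of 3 libraries were not tested for single libraries that stand apart.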

How the results depend on the processing

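MC1R and MGRN1 kept their direction and their call against control under all 18 alternatives for each DsiRNA and all 17 for both pooled. MC1R ranged over 0.34 to 0.47 with 13.6, 1.07 to 1.22 with 13.8 and −0.79 to −0.69 between the DsiRNAs, and MGRN1 over −0.45 to −0.33 and −0.64 to −0.52. The counts of called genes stayed within 1.5 times the main count under every alternative.

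MGRN1 between 13.6 and 13.8 passed under 7 alternatives: 0.207 with no filter (edgeR, adjusted p = 0.0296), 0.191 with only the groups compared (0.0116), 0.187 with the replicate block (0.0137), and with 4 of the 9 libraries left out in turn, where the value over all 9 ran from 0.163 to 0.236. ATRN passed with the replicate block at 0.244 for 13.6 (adjusted p = 0.00586) and 0.170 for both pooled (0.0213), and between the DsiRNAs at 0.150 with only the groups compared (0.0477). With a library left out, ATRN ran from 0.119 to 0.358 with 13.6, from −0.0306 to 0.209 with 13.8 and from 0.0441 to 0.284 for both. ASIP with 13.8 ran from −0.130 to 0.349 with a library left out. MC5R for both pooled, −0.133, became 0.0186 in limma-voom and ran from −0.461 to 0.335 with a library left out. The causes were not tested.

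The labels do not say whether the replicate numbers pair the libraries. Correlations of same-numbered libraries, taken within groups, ran from −0.283 to 0.34. Those of other pairs across groups ran from −0.467 to 0.323, which does not settle the question. Apart from ATRN and MGRN1 above, no member's call changed with the block. No value with only the groups compared exists for both DsiRNAs pooled. The ratio of POMC reads stayed within its interval. Without control replicate 3 no control read of POMC remained, so it gave no ratio. Of 426 list counts under alternatives, 416 stayed within 1.5 times and 10 were lower. Depth limits POMC, at 0 to 4 reads per library. ASIP had 41 to 110 reads per library and a coefficient of variation within groups of 16.6% to 32.5%.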
